A study of Mus musculus with 4 samples.

Results

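The 50 genes described here are mouse genes known to be imprinted, listed by name from general knowledge of imprinting, with earlier results of these data known. No level or change of a gene was part of the rule. All 50 were found among the 21878 genes of the mRNA table, with 233 of its 75959 transcripts, and the values of a gene's transcripts were added. They were grouped into 21 imprinted clusters or single loci, and by the parental copy that is known to be active. That copy is the paternal one for 24 genes and the maternal one for 18 genes, and for 8 genes it depends on the isoform or the tissue. The grouping does not say that a gene is imprinted in these cells, and Ube3a, grouped as maternal, is imprinted mainly in neurons. The data hold no information on alleles, so a level is always the sum over both copies.

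The cells were C3H10T1/2, an established line of mouse mesenchymal cells that can form muscle and fat cells. In the untreated group, replicates 1 and 2 received no drug. In the 5-AZA group, replicates 101 and 102 received 20 micromolar 5-AZA (5-azacytidine) for 72 h and then fresh growth medium for another 21 days. 5-AZA is a cytosine analogue that traps the enzymes which methylate DNA. The study asked which coding and noncoding RNAs accompany the change of these cells towards muscle and heart muscle cells after 5-AZA. The sources used here do not state how long the untreated cells were cultured, so time in culture and drug cannot be told apart. All 4 samples came from 1 cell line, and RNA was depleted of ribosomal RNA and made into stranded libraries. The study calls the samples of a group biological repeats, and the labels do not say whether they came from separate cultures, so the spread between them may be technical.

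An imprinted gene is transcribed mainly from the copy inherited from one parent. The silent and active copies differ in DNA methylation at control regions, and this mark is set in the germ line and is copied by DNMT1 at each cell division. Many imprinted genes act in growth: paternally expressed genes such as Igf2 tend to favour it, and maternally expressed genes such as Igf2r and Cdkn1c tend to restrain it. Grb10 restrains growth as well and is grouped here with the genes whose active copy depends on the isoform or the tissue.

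Values are FPKM, fragments mapped to a transcript, scaled to its length and to the depth of the library. Changes were fitted with limma on log2(FPKM + 0.1), and folds therefore understate the change of genes near 0. Genes with a mean of at least 0.1 FPKM were tested, and a gene was called where its p-value, adjusted over all 13199 genes tested, was below 0.05 and its change was over 2-fold. The files give no read counts for genes, so the depth behind a value is unknown. FPKM sums per sample were between 328410 and 361664. With 2 samples against 2 no exact permutation test can reach a p-value of 0.05.

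Among the imprinted genes the change after 5-AZA was in the direction of higher levels. Of the 50 genes, 34 were tested, 10 were called higher and 0 were called lower. Over all genes, 13.1% were called higher and 1.32% were called lower. At an unadjusted limma p-value under 0.05, 12 imprinted genes were higher and 2 were lower, against 24.4% and 11.1% of all genes tested. The median log2 fold change was 0.19 for the imprinted genes tested and 0.05 for all genes tested, so the typical imprinted gene moved little. Both 5-AZA samples lay above both untreated samples for 17 imprinted genes, below them for 6, and the groups overlapped for 11. The same orders were seen for 36.8% and 25.4% of all genes tested. A gene could pass the limit on low values through the 5-AZA samples alone, so these counts are a description and no support for a difference.

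The 10 genes called higher were Igf2, Mest, Slc38a4, Nnat, Peg10, Plagl1, Peg3, Rtl1, Cdkn1c and Herc3. All 10 were low in untreated cells, where the highest mean was 2.16 FPKM and 6 of the means were under 1 FPKM. 5-AZA replicate 102 was above replicate 101 in 9 of them, Igf2 being the exception. The same order was seen in 17 of the 24 imprinted genes tested and not called and in 74.6% of all genes tested, and the FPKM sum of replicate 102 was the largest of the 4 samples.

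**Figure D1:**
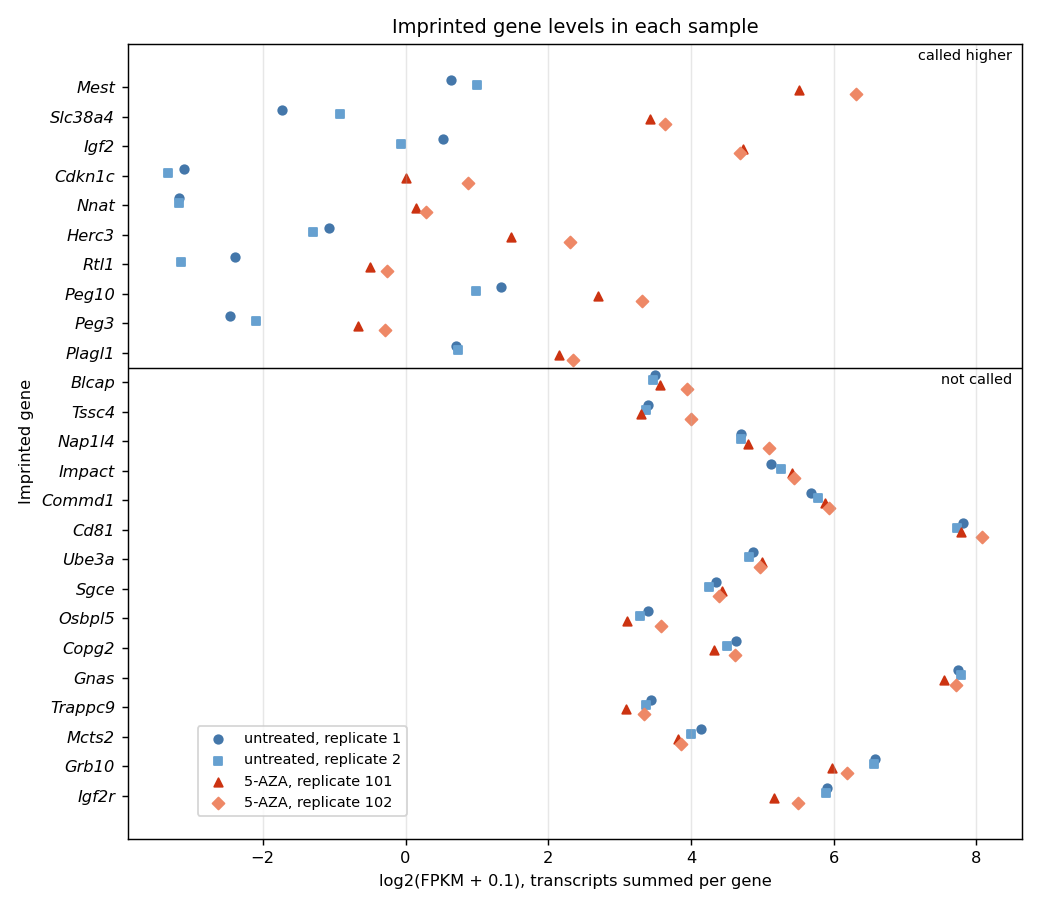
Level of 25 imprinted genes in each of the 4 samples as log2(FPKM + 0.1), for the 10 genes called higher (top) and the 15 genes that were not called and had a mean of at least 10 FPKM in a group (bottom). Each symbol is 1 sample, and the genes called higher start from low untreated levels.

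Promoter windows of some of these genes are shown because CpG dinucleotides are the sites of the methylation that 5-AZA blocks. The windows run from 250 bases before to 50 bases after a RefSeq transcript start in GRCm38.p6, each is read 5′ to 3′ on the strand of its gene, and CpG dinucleotides are in capitals. The first 4 belong to paternally expressed genes and hold more CpG than the median of 7 over all windows. That of Peg3 holds fewer than the median of 16.5 over the imprinted genes. The last is a CpG-poor start of Slc38a4, another paternally expressed gene. These windows were chosen after the values were seen. The Mest window (chr6:30737800-30738099, plus strand) held 17 CpG, the Plagl1 window (chr10:13090582-13090881, plus strand) 26, the Nnat window (chr2:157559828-157560127, plus strand) 17, the Peg3 window (chr7:6730370-6730669, minus strand) 13 and the Slc38a4 window (chr15:97055907-97056206, minus strand) 5.
Mest: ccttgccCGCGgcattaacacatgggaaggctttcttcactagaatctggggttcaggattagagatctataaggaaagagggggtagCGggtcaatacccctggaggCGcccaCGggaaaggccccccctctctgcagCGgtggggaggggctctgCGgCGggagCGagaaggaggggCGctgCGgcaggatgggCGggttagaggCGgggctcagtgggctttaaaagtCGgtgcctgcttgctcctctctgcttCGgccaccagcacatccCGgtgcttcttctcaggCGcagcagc
Plagl1: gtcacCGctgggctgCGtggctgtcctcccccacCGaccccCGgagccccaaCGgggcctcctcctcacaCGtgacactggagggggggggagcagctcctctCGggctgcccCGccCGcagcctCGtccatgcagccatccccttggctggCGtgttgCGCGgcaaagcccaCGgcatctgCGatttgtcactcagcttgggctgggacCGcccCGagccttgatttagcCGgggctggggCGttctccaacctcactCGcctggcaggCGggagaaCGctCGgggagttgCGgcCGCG
Nnat: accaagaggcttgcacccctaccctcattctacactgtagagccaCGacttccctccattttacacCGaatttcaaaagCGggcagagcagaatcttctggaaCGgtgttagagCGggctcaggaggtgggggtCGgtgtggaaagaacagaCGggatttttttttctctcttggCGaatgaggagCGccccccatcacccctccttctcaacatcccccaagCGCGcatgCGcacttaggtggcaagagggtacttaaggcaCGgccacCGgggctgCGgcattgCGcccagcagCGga
Peg3: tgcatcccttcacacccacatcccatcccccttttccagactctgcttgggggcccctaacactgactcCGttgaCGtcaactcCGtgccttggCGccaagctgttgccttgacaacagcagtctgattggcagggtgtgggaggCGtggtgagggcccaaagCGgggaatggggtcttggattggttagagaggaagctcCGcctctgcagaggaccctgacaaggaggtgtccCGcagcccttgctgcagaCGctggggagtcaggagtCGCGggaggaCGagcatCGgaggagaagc
Slc38a4: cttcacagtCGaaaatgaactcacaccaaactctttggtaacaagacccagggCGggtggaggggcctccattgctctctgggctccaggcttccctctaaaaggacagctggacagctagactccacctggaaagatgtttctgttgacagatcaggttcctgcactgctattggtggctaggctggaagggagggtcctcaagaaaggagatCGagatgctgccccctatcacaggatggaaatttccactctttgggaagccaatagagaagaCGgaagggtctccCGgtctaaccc
Of the 50 genes, 40 had such windows, 62 in all, and several genes had more than 1. The median number of CpG per window was 16.5 for the imprinted genes and 7 for all 32851 windows. It was 10.5 (range 2 to 26) for the 14 windows of 7 genes called higher and 17.5 (range 1 to 45) for the 28 windows of 20 genes tested and not called. Cdkn1c, Peg10 and Rtl1 had no window, and Igf2, Mest and Slc38a4 supplied most of the 14. The hexamer TGCCGC, read on either strand, is the core of the sequence that ZFP57, a guardian of imprints, is known to bind. It was present in 25.8% of the imprinted windows and in 11.6% of all windows, and the Mest, Plagl1 and Nnat windows above hold it. The hexamer itself contains a CpG, and the sets of windows compared were not matched for CpG content. Overlapping windows of a gene, as in Mest, were counted separately. The presence of the hexamer is a match of letters only, and no methylation was measured.

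Igf2, an insulin-like growth factor that drives fetal growth and is active in muscle differentiation, is expressed from the paternal copy and shares a cluster with H19. It was at 1.34 and 0.855 FPKM in the untreated samples and at 26.5 and 25.7 FPKM in the 5-AZA samples. The 2 groups were far apart and both pairs were close. Igf2 rose by 4.48 (SE 0.21) on the log2 scale (limma adjusted p = 1.93e-06), from 1.10 ± 0.34 to 26.1 ± 0.555 FPKM (SD, n = 2). One of its 6 transcripts, NM_001122737.2, carried 96.3% of the level in both groups. Ins2, the neighbouring insulin gene, was listed at 0 in all 4 samples.

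Mest, which encodes a hydrolase-like protein and is a classic paternally expressed gene of mesoderm, reached the highest level of the genes called. It was at 1.45 and 1.91 FPKM in the untreated samples and at 45.8 and 79.2 FPKM in the 5-AZA samples. The 5-AZA samples differed from each other by more than those of Igf2, yet the groups stayed apart. Mest rose by 5.09 (SE 0.25) on the log2 scale (limma adjusted p = 2.52e-06), from 1.68 ± 0.326 to 62.5 ± 23.7 FPKM (SD, n = 2). NM_008590.2, 1 of its 4 transcripts, carried 96.1% of the level after 5-AZA. Copg2, a coat protein gene that ends within the same locus on the opposite strand, was at 24.8 and 22.6 FPKM without and 20.0 and 24.5 FPKM with 5-AZA, and its groups overlapped. The annotated Mest and Copg2 genes share 913 bases. Klf14, a maternally expressed transcription factor of this locus, was listed at 0 throughout.

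Slc38a4, a transporter of amino acids that is expressed from the paternal copy in placenta and other tissues, was at 0.201 and 0.431 FPKM in untreated cells and at 10.6 and 12.3 FPKM after 5-AZA. The untreated samples differed from each other, but both lay far below the treated pair. It rose by 4.85 (SE 0.29) on the log2 scale (limma adjusted p = 6.73e-06). NM_027052.3 carried 96.3% of the level after 5-AZA. Without 5-AZA replicate 101 the log2 fold change of Slc38a4 was 4.953, and without replicate 102 it was 4.745, but the gene was called in neither fit.

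Plagl1, a zinc finger transcription factor known to regulate other imprinted genes, has 1 transcript in the table. It was at 1.54 and 1.57 FPKM in untreated cells and at 4.34 and 4.96 FPKM after 5-AZA, with little spread in either group. Its rise was 1.52 (SE 0.19) on the log2 scale (limma adjusted p = 0.000489). Without 5-AZA replicate 101 the adjusted p was 0.0540, and without replicate 102 it was 0.0651.

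Peg10 and Rtl1 are genes derived from retrotransposons, and both are needed for the placenta. Peg10 was at 2.43 and 1.89 FPKM in untreated cells and at 6.37 and 9.89 FPKM after 5-AZA. It rose by 1.84 (SE 0.24) on the log2 scale (limma adjusted p = 0.00059). The table lists 2 Peg10 transcripts with the same values in every sample, so their sum may count 1 level over again, which leaves the ratio between the groups nearly untouched. Without 5-AZA replicate 101 the adjusted p of Peg10 was 0.0651, and without replicate 102 it was 0.0959.

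Sgce, the sarcoglycan gene that shares the promoter region of Peg10 on the other strand, was higher in level and was not called. It was at 20.4 and 19.05 FPKM in untreated cells and at 21.5 and 21.0 FPKM after 5-AZA, and the log2 fold change was 0.11 with a 95% interval from -0.14 to 0.35. Both 5-AZA values lay just above both untreated ones. Casd1, a sialic acid acetyltransferase of the same cluster, was between 1.62 and 2.83 FPKM and was not called (limma adjusted p = 0.138). Asb4 stayed under the limit on low values, and Ppp1r9a and Calcr were listed at 0 in all 4 samples.

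Rtl1, in the Dlk1-Dio3 cluster, was at 0.0912 and 0.0134 FPKM in untreated cells and at 0.609 and 0.734 FPKM after 5-AZA. The groups did not overlap, and the level stayed under 1 FPKM in every sample. It rose by 2.38 (SE 0.39) on the log2 scale (limma adjusted p = 0.00228). That call was lost without 5-AZA replicate 101 (adjusted p = 0.104) or 102 (adjusted p = 0.118). Rtl1 has antisense transcripts within the same locus, and whether counting used strand is not given in the sources used here. Dlk1, a Notch-related ligand known to restrain adipocyte formation, was at 0.295 and 0.0788 FPKM in untreated cells and at 0.113 and 0.942 FPKM after 5-AZA. Its groups overlapped, and the change was not resolved (log2 fold change 0.83, SE 0.71). Dio3, a deiodinase at the far end of the cluster, was listed at 0 in all samples.

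Peg3, a large zinc finger gene of the paternal copy, was at 0.0816 and 0.134 FPKM in untreated cells and at 0.529 and 0.721 FPKM after 5-AZA. It rose by 1.80 (SE 0.35) on the log2 scale (limma adjusted p = 0.00588). The call of Peg3 was lost without 5-AZA replicate 101 (adjusted p = 0.0686) or 102 (adjusted p = 0.0900). All of this lay under 1 FPKM, and it came from predicted transcripts, while the curated transcript NM_008817.2 carried 0.486% of the level after 5-AZA. Usp29, whose window overlaps that of Peg3 by 263 bases on the other strand, was listed at 0 throughout, and the maternally expressed Zim1 was at most 0.0532 FPKM.

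Nnat, a small membrane protein of neurons and endocrine cells, was at 0.0112 and 0.0104 FPKM in untreated cells and at 1.00 and 1.12 FPKM after 5-AZA. The pairs were tight, and the untreated level was close to 0. It rose by 3.39 (SE 0.33) on the log2 scale (limma adjusted p = 0.000127). NM_010923.3 carried 85.8% of the level after 5-AZA and was listed at 0 in both untreated samples. Nnat lies wholly within Blcap on the opposite strand, over 2448 bases. Blcap, a regulator of cell growth, was at 11.1 and 11.0 FPKM in untreated cells and at 11.8 and 15.3 FPKM after 5-AZA, and was not called (limma adjusted p = 0.231).

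Cdkn1c, the cell cycle inhibitor p57 and the only maternally expressed gene called, was at 0.0159 and 0 FPKM in untreated cells and at 0.902 and 1.74 FPKM after 5-AZA. The treated samples spread widely but lay above both untreated ones. It rose by 3.66 (SE 0.39) on the log2 scale (limma adjusted p = 0.00021). Its level was split over 7 transcripts, none of which was called by itself.

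Herc3, a ubiquitin ligase gene with Nap1l5 inside it on the opposite strand, was at 0.376 and 0.306 FPKM in untreated cells and at 2.70 and 4.83 FPKM after 5-AZA. The treated pair was several-fold above the untreated pair. It rose by 3.08 (SE 0.31) on the log2 scale (limma adjusted p = 0.000149). The predicted transcript XM_006506695.2 carried 35.3% of the level after 5-AZA, and with curated transcripts alone the log2 fold change was 1.32 and the adjusted p was 0.18. Nap1l5, the paternally expressed member of the pair, was listed at 0 in all samples.

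Genes of the paternal copy made up most of those called. Of the 16 paternally expressed genes tested, 8 were called higher, and their median log2 fold change was 1.17. Of the 10 maternally expressed genes tested, 1 was called higher, with a median of 0.15, and of the 8 genes whose active copy depends on isoform or tissue, 1 was called higher, with a median of 0.03. Over all genes tested, 13.1% were called higher, and 20.0% of those under 10 FPKM in untreated cells. Nnat and Rtl1 of the paternal class and Cdkn1c of the maternal class entered the fit through their 5-AZA values. Which copy is active in these cells was not measured. The difference between these classes was not tested, and the classes also differed in level. Of the paternally expressed genes 6 were at 10 FPKM or more in a group, against 8 of the fewer maternally expressed ones. Among those 6, Igf2, Mest and Slc38a4 reached 10 FPKM only after 5-AZA, from untreated means of 1.10, 1.68 and 0.316 FPKM. The 8 maternally expressed genes were at that level in untreated cells already, so the classes differed more in untreated level than these counts show.

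**Figure D2:**
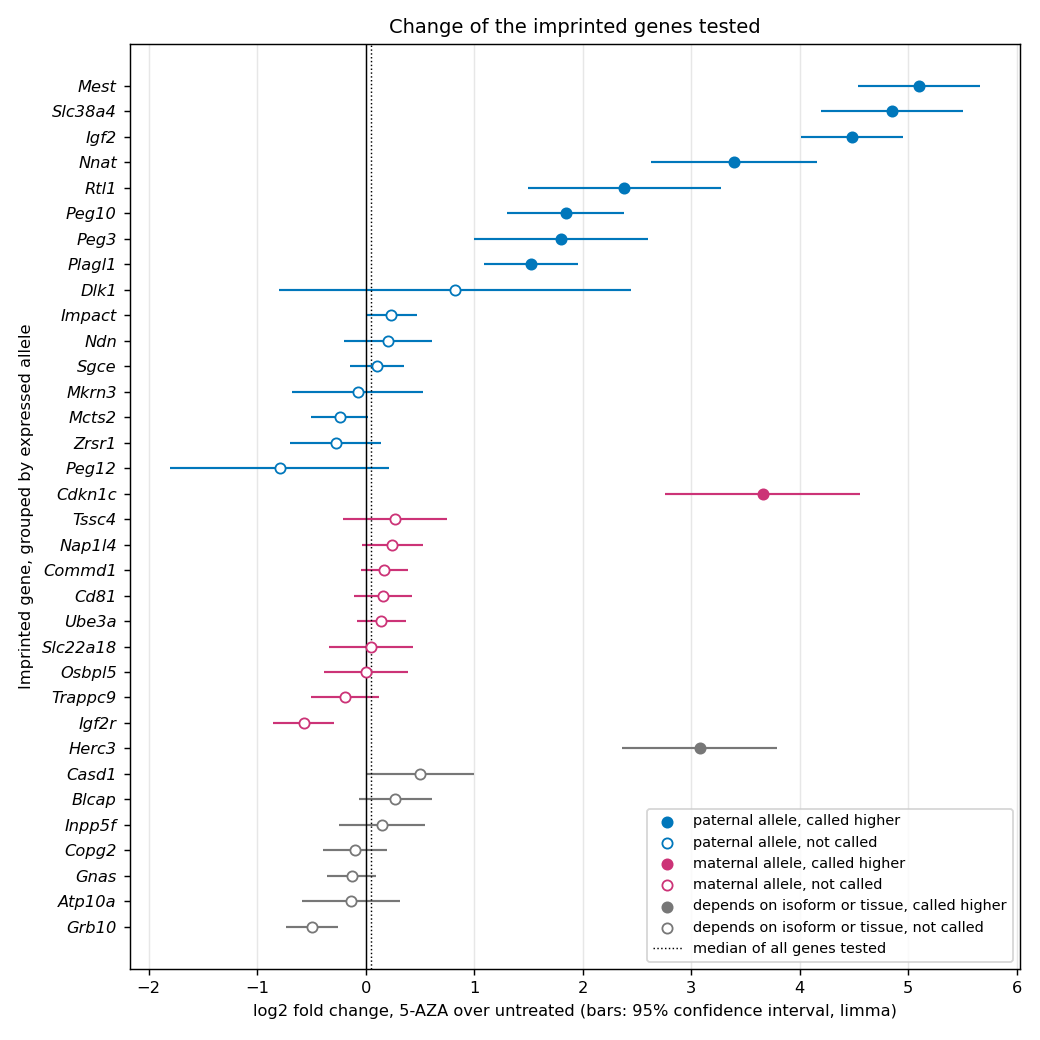
Log2 fold change of the 34 imprinted genes tested, 5-AZA over untreated, with 95% confidence intervals from limma, grouped by the parental copy known to be active. Filled circles are genes called higher, 8 of them paternal, and the dotted line is the median of all genes tested, at 0.05. Over all genes tested, 13.1% were called higher.

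All genes called had low untreated levels, but not all genes with low levels were called. Of the 15 imprinted genes with at least 10 FPKM in untreated cells 0 were called, and 1 was higher and 2 were lower at an unadjusted limma p-value under 0.05, which 14.7% and 16.5% of all genes at that level passed. Of the 19 tested below that level, 10 were called higher and 9 were not called, among them Dlk1, Mkrn3, Peg12 and Casd1. Of the 10, 3 (Cdkn1c, Nnat and Rtl1) had an untreated mean under the limit of 0.1 FPKM and entered the fit through their 5-AZA values, so the split by untreated level is partly set by the limit. Among all genes tested, 1.48% of the 4943 genes at 10 FPKM or more and 20.0% of the 8256 genes below it were called higher. In both sets, then, calls were mostly of genes that started low.

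**Figure D3:**
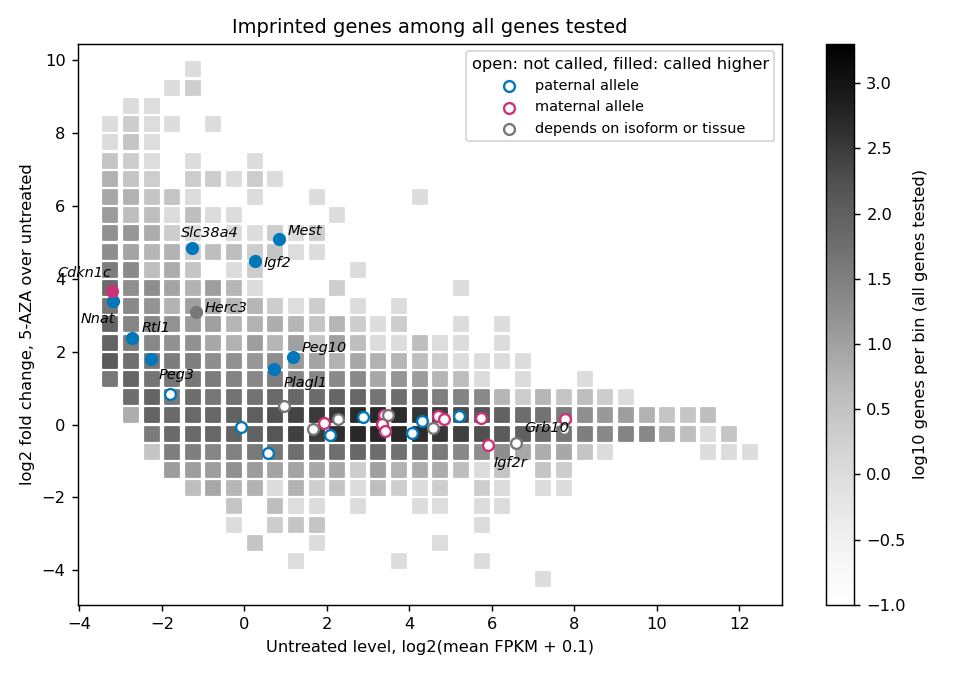
Log2 fold change, 5-AZA over untreated, against the untreated level as log2(mean FPKM + 0.1). Grey squares are bins of all 13199 genes tested, darker where they hold more genes, and circles are the 34 imprinted genes tested. Circles above a log2 fold change of 1 lie at low untreated levels.

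Grb10 and Igf2r, both restrainers of growth, were the imprinted genes that were lower at an adjusted p below 0.05, although neither passed 2-fold. Cdkn1c, another restrainer of growth, was called higher, with a log2 fold change of 3.66. Grb10, an adaptor that dampens insulin and growth factor receptors, was at 95.8 and 94.7 FPKM in untreated cells and at 62.8 and 72.7 FPKM after 5-AZA (log2 fold change -0.49, SE 0.10, limma adjusted p = 0.00855). Igf2r, the receptor that clears IGF2 from the cell surface, was at 59.7 and 59.5 FPKM in untreated cells and at 35.7 and 45.1 FPKM after 5-AZA (log2 fold change -0.57, SE 0.12, limma adjusted p = 0.0101). For both genes the treated samples lay below the untreated ones, by less than the fold set for a call. The adjusted p-values of Grb10 and Igf2r were 0.0681 and 0.0665 without 5-AZA replicate 101, 0.0769 and 0.0818 without the trend in limma and 0.0804 and 0.123 with no limit on low values, and that of Grb10 was 0.052 without untreated replicate 1. NM_010345.4 carried 81.3% of Grb10 in untreated cells and 80.6% after 5-AZA.

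The other genes at 10 FPKM or more were not called. Gnas, which encodes the stimulatory G protein subunit and several alternative products, was at 213.2 and 219.7 FPKM in untreated cells and at 186.6 and 209.6 FPKM after 5-AZA. Its log2 fold change was -0.13, with a 95% interval from -0.36 to 0.10. The sum was stable, yet the split between its 17 transcripts was not, even within a group. XM_017315658.1 was at 121.6 and 39.9 FPKM in the untreated samples and at 55.1 and 86.4 FPKM in the 5-AZA samples. XM_006498778.2 was at 7.05 and 86.4 FPKM in the untreated samples and at 54.2 and 21.2 FPKM in the 5-AZA samples. The sample that was high for the first was low for the second in both groups, so the levels of these 2 transcripts say little by themselves. NM_201616.2 was steadier, between 51.5 and 66.5 FPKM, and 0 of the Gnas transcripts were called.

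**Figure D4:**
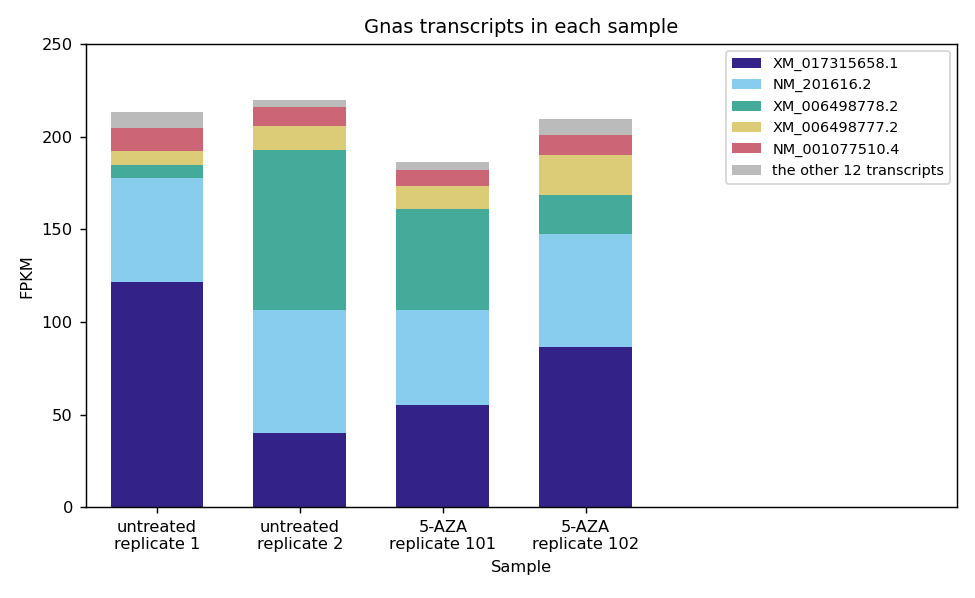
FPKM of the Gnas transcripts in each sample, stacked, with the 5 highest transcripts in colour and the other 12 in grey. The height of the stack runs from 186.6 to 219.7 FPKM, while XM_017315658.1 and XM_006498778.2 differ in share between samples of the same group.

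The Kcnq1 cluster on chromosome 7 held 9 of the imprinted genes, of which 6 were tested and Cdkn1c alone was called. Cd81, a tetraspanin of the cell surface, was at 224.3 and 212.8 FPKM in untreated cells and at 220.2 and 269.4 FPKM after 5-AZA. Its groups overlapped. Nap1l4, a histone chaperone, was at 25.9 and 25.8 FPKM in untreated cells and at 27.8 and 33.9 FPKM after 5-AZA (limma adjusted p = 0.187). Osbpl5, a lipid transfer protein, was at 10.4 and 9.61 FPKM without and at 8.52 and 11.8 FPKM with 5-AZA, so its treated values enclosed the untreated ones. Tssc4 was at 10.4 and 10.2 FPKM in untreated cells and at 9.72 and 16.0 FPKM after 5-AZA. Its transcript with the highest mean was NM_020285.2 in untreated cells and NM_001115085.1 after 5-AZA, which rests on replicate 102. NM_020285.2 was at 7.22 and 6.74 FPKM and then at 4.08 and 4.76 FPKM, and NM_001115085.1 was at 1.22 and 0.581 FPKM and then at 2.30 and 6.81 FPKM, and neither was called. Slc22a18, a transporter, was between 3.64 and 4.12 FPKM in all samples. Kcnq1, a potassium channel, and Ascl2, a factor of placenta, were under the limit on low values, and Phlda2, which restrains placental growth, was listed at 0.

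In the Snrpn-Ube3a cluster, whose loss in humans is known from Prader-Willi and Angelman syndromes, 5 of 7 genes were tested and 0 were called. Ube3a, a ubiquitin ligase that is imprinted mainly in neurons, was at 29.0 and 28.0 FPKM in untreated cells and at 31.8 and 31.3 FPKM after 5-AZA. Both treated values were slightly higher, and the log2 fold change of 0.15 had a 95% interval from -0.08 to 0.37. Ndn, a growth suppressor of the paternal copy, was between 6.52 and 9.55 FPKM with overlapping groups. Mkrn3 was between 0.759 and 0.919 FPKM, and Atp10a between 2.64 and 3.42 FPKM. Peg12 was between 0.410 and 1.57 FPKM, its lowest value being that of 5-AZA replicate 102. Snrpn, an RNA processing gene, was listed at 0 in untreated cells and was at 0.237 and 0.0772 FPKM after 5-AZA, and Magel2 was listed at 0 throughout.

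Among the loci of 1 or 2 genes, Commd1, a regulator of copper handling, was at 51.2 and 54.6 FPKM in untreated cells and at 58.4 and 60.9 FPKM after 5-AZA (limma adjusted p = 0.24). Zrsr1, a splicing factor gene that lies within Commd1 on the opposite strand, was between 3.35 and 4.62 FPKM. Impact, a regulator of translation, was at 34.6 and 38.3 FPKM in untreated cells and at 42.6 and 43.3 FPKM after 5-AZA (limma adjusted p = 0.132). These treated values were above the untreated ones, but by less than 2-fold. Mcts2, a retrogene copy of a translation factor, was at 17.5 and 16.0 FPKM in untreated cells and at 14.0 and 14.4 FPKM after 5-AZA (limma adjusted p = 0.178). Mcts2 and Zrsr1 have near-identical copies elsewhere in the genome, which makes their values uncertain. Trappc9, a vesicle transport gene, was at 10.7 and 10.2 FPKM in untreated cells and at 8.41 and 9.998 FPKM after 5-AZA (limma adjusted p = 0.377). Inpp5f, a lipid phosphatase, was between 4.47 and 5.86 FPKM. Rasgrf1 and Zdbf2 were at most 0.125 and 0.0966 FPKM and were not tested.

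In all, 9 imprinted genes were listed at 0 in all 4 samples (Ins2, Klf14, Usp29, Dio3, Phlda2, Magel2, Ppp1r9a, Calcr and Nap1l5), and 7 more were above 0 but under the limit on low values (Zim1, Snrpn, Kcnq1, Ascl2, Asb4, Rasgrf1 and Zdbf2). At 1 FPKM or more were 26 genes in untreated cells and 29 after 5-AZA.

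By single transcript, 101 of the 233 transcripts of imprinted genes were tested, 3 were called higher and 0 lower. Of all 35557 transcripts tested, 2.1% were called higher and 0.262% lower. The 3 were NM_001122737.2 of Igf2, NM_008590.2 of Mest and NM_027052.3 of Slc38a4, with log2 fold changes of 4.47, 5.08 and 4.80. The rises of Plagl1 and Rtl1, which have 1 transcript each, were not called in the fit over transcripts (limma adjusted p = 0.0507 for Plagl1 and 0.159 for Rtl1).

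circRNAs are closed RNA loops made by back-splicing and were listed as RPM, back-splice reads scaled to the depth of the library. The table named 14 of its 4295 circRNAs for 9 imprinted host genes, and 10 of the 14 were seen in 1 sample only. The circRNA named for Rtl1 was typed as antisense, on the strand opposite to Rtl1, and was among those tested. Of the 4 tested, 0 were called, and 0 were under an unadjusted limma p-value of 0.05, a threshold that 251 of all 1360 circRNAs tested passed. Over all circRNAs 0% were called. One circRNA of Ube3a (chr7:59240967-59247217, plus strand, 232 bases) stood out by level, with 25, 16, 16 and 7 reads in untreated 1, untreated 2, 5-AZA 101 and 5-AZA 102. Its RPM were 0.269, 0.171, 0.172 and 0.0745, so the lower untreated sample and the higher 5-AZA sample were nearly equal. The log2 fold change was -0.80 (SE 0.50, limma adjusted p = 0.612), while the summed Ube3a mRNA was slightly higher after 5-AZA. None of the other 13 had more than 8 reads in total. The labels name the build mm9, but the host transcript positions in this table equal a gene start or end of GRCm38.p6 in 69.0% of cases, so these coordinates are given as listed.

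Genes that read or maintain imprints were followed beside them. Of 16 such genes 14 were tested and 0 were called, with a median log2 fold change of -0.09. Calls among all genes tested were 13.1% higher and 1.32% lower. At an unadjusted limma p-value under 0.05 were 3 of the 14, Ezh2, Smchd1 and Zfp57, all of them lower. That threshold was passed by 11.1% of all genes tested as lower and by 24.4% as higher. Smchd1 had a log2 fold change of -0.36 (limma adjusted p = 0.0577). Dnmt1, the maintenance methyltransferase, was at 14.1 and 11.5 FPKM in untreated cells and at 12.8 and 12.8 FPKM after 5-AZA. Ezh2, which methylates histone H3, was at 6.25 and 5.78 FPKM without and 3.78 and 3.57 FPKM with 5-AZA, under 2-fold (limma adjusted p = 0.0125). Zfp57 was at 2.90 and 2.49 FPKM without and 1.78 and 2.03 FPKM with 5-AZA (limma adjusted p = 0.133).

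A further list of 18 genes reported as imprinted in some mouse tissues had 12 genes tested, 5 called higher and 1 called lower. Over all genes tested, 13.1% were called higher and 1.32% lower. Of those under 10 FPKM in untreated cells, 20.0% were called higher. The median of the list was 0.60 on the log2 scale, against 0.05 for all genes tested. Untreated means of those called higher were 0.373 FPKM for Pon3, 0.694 for Ddc, 0.366 for Ano1, 0.067 for Cobl and 2.6 for Ampd3. Cobl entered the fit through its 5-AZA values. Ddc, which makes dopamine and serotonin, was at 0.825 and 0.563 FPKM in untreated cells and at 7.98 and 11.96 FPKM after 5-AZA (limma adjusted p = 1.81e-05). Pon3, a lactonase, rose by 2.70, Ano1, a chloride channel, by 1.81, Cobl, an actin nucleator, by 1.37 and Ampd3, a deaminase of AMP, by 1.28 on the log2 scale. Slc22a2, a transporter of organic cations, fell by 1.34 (limma adjusted p = 0.0439). Levels of this gene were under 1 FPKM in all samples.

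Cell type markers were read as summed levels per sample. The summed level of 10 skeletal muscle markers was 1.65 and 1.22 FPKM in untreated cells and 705 and 1093 FPKM after 5-AZA, with all 8 tested called higher and Myf5 and Myf6 listed at 0. The sum of 8 adipocyte markers was 47.8 and 32.8 FPKM without and 1108 and 1524 FPKM with 5-AZA, with 6 of 7 tested called higher. Both sums were higher in replicate 102 than in 101, as were most genes. Mesenchymal markers were present, with sums of 8749 and 8800 FPKM in untreated cells and 5651 and 5571 FPKM after 5-AZA. S100a4 and Vim made up most of these sums, while the median log2 fold change of the 9 markers tested was 0.26. Thy1 was called higher, 0 were called lower and Nt5e was listed at 0 in untreated cells. At a limma adjusted p below 0.05 but under 2-fold, S100a4, Vim, Col1a1 and Col1a2 were lower and Col3a1 and Eng were higher. Sums of immune markers were 1.17 and 1.502 FPKM without and 2.48 and 3.77 FPKM with 5-AZA, with Cd68, 1 of 1 tested, called higher and 3 of 8 listed at 0. Sums of endothelial markers were 0.662 and 0.456 FPKM without and 1.88 and 1.91 FPKM with 5-AZA, with 2 of 4 tested called higher (Cdh5 and Tek) and 2 of 6 listed at 0. Sums of neuronal markers were between 0.699 and 1.25 FPKM, with 0 of 1 tested called. The part of these cell types in the changes of the imprinted genes was not tested. In bulk RNA, fewer cells of a type and less RNA per cell cannot be told apart.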

How the data were processed

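RNA of 2 untreated and 2 5-AZA samples was compared. Per the labels, reads were trimmed with Trimmomatic and processed with HISAT2, Bowtie2 2.2.9, eXpress 1.5.1 and the build mm9. The authors deposited FPKM per transcript for mRNAs and RPM for circRNAs. RPM values were whole multiples, within 0.01 reads, of a step taken as 1 read, and reads printed for circRNAs are inferred from that step, the fewest being 2. FPKM were summed per gene, and limma 3.58.1 in R 4.3.3 was run on log2 values, with a mean-variance trend, over all genes with a mean of at least 0.1 FPKM, with a pseudocount of 0.1 FPKM (0.0213 RPM for circRNAs seen in at least 2 samples) and Benjamini-Hochberg adjustment. The fits were tested on simulated data. Values in each sample were given for imprinted genes called or with a mean of at least 10 FPKM in a group. The members and lists were chosen with earlier results of these data known. Promoter windows came from RefSeq (GRCm38.p6). lncRNAs were not used here, since their table pairs no gene symbols with them.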

Additional observations from a re-analysis of the deposited data

How the results depend on the processing

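The number of imprinted genes called higher was 10 in the reported fit, with a pseudocount of 0.01 FPKM, with samples centred on their medians and with eBayes without trend. It was 8 with a pseudocount of 1 FPKM, 8 with quantile normalization, 8 with curated transcripts only and 7 with no limit on low values. It was 6 with a limit of 1 FPKM, which left 28 imprinted genes to test and not Cdkn1c, Nnat, Peg3 and Rtl1. Leaving out each sample in turn gave between 5 and 10. It was 10 without either untreated sample and 5 without either 5-AZA sample, where Cdkn1c, Herc3, Igf2, Mest and Nnat were called, and Peg3, Plagl1, Rtl1, Peg10 and Slc38a4 had adjusted p-values between 0.0540 and 0.118. The lone sample is then assumed to vary like the other group. In each of these fits 0 imprinted genes were called lower, and the median log2 fold change stayed between 0.08 and 0.28.

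Among all genes, 1724 were called higher and 174 lower. Quantile normalization, which moved the median log2 fold change of all genes to -0.12, gave 1041 and 886, a pseudocount of 1 FPKM 875 and 86, no limit 1179 and 83, a limit of 1 FPKM 845 and 122, and the fits without 5-AZA replicate 101 or 102 gave 925 and 52 or 733 and 70. The size of the change of low genes depended on the pseudocount. With 0.01 and 1 FPKM the log2 fold change was 6.29 and 1.18 for Cdkn1c, 5.69 and 1.03 for Nnat, 3.80 and 0.67 for Rtl1 and 2.45 and 0.55 for Peg3. With quantile normalization Peg3 was at 0.56 (adjusted p = 0.182) and Rtl1 at 1.10 (adjusted p = 0.0502). Mkrn3 was at -0.99 (limma adjusted p = 0.0239) in the same fit, just under the fold set for a call. At an unadjusted limma p-value under 0.05, that fit had 9 imprinted genes higher and 7 lower, and centring gave 10 and 5. The reported fit had 12 and 2, beside 24.4% and 11.1% of all genes tested, and such shares were not taken in the other fits.

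Transcripts of imprinted genes called were 3, and 0 with no limit on low values, and leaving out each sample in turn gave between 0 and 3. The sign changed under some alternative in 9 imprinted genes, 0 of them called (Atp10a, Copg2, Dlk1, Inpp5f, Mkrn3, Osbpl5, Sgce, Slc22a18 and Tssc4). Dlk1 was at -0.35 with quantile normalization and -0.32 without 5-AZA replicate 102. Osbpl5 was at -0.10 when centred, -0.079 with quantile normalization and -0.11 with curated transcripts, Sgce at -0.0019 when centred, and with single samples left out Osbpl5 ranged from -0.23 to 0.24, Copg2 from -0.24 to 0.051 and Tssc4 from -0.087 to 0.62. The cause was not tested. The circRNA count was 0 in every alternative run. The count test on circRNA reads was not run, because the lowest value listed corresponds to 2 reads and reads recovered from RPM were not accepted as counts. No paired analysis was possible because the groups share no replicate numbers.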
